A study of Mus musculus with 24 samples.

Results

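The genes described are those of the extracellular matrix scaffold of the mouse heart: the collagens, the laminins, the lysyl oxidases and the ADAMTS genes, together with Fn1, Postn and Sparc. The genes were taken by their names on the array (Col, Lam, Lox and Adamts symbols plus those 3), which gave 82 of 27962 gene names. One probe stood for each gene, the one with the highest mean heart signal. Of the 82 genes, 49 passed the filter on dim probes (a heart signal well above background on every array of 1 or more groups) and were tested, among 11437 features tested in all. One of the 49, Col4a3bp, matches only by name: it is the older symbol of Cert1, a ceramide transporter and no collagen.

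Collagens are triple-helical proteins. The fibrillar types form the tensile fibres between heart muscle cells, while collagen IV and the laminins build the basement membrane that surrounds each muscle cell and capillary. Lysyl oxidases cross-link collagen and elastin. ADAMTS proteases are secreted enzymes: some trim procollagen, others cut large proteoglycans such as versican. Fibronectin (Fn1), periostin (Postn) and Sparc are matrix proteins known to be made in quantity when a heart is repaired or develops.

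The hearts came from mice 12 to 16 weeks old, wild type (MuRF1+/+) or MuRF1 Tg+, which carry a transgene for the muscle ubiquitin ligase MuRF1. The surgery was a sham operation or ischemia-reperfusion (I/R): the anterior descending branch of the left coronary artery was closed with a tie that was later released. Tissue from above and from below the tie was hybridised separately, which gave 8 groups of 3 arrays, 24 arrays and 12 hearts. The promoter of the transgene, the strain of the hearts and the time from release to harvest are not given in the sources used here. Heart RNA was labelled with Cy5, and RNA pooled from whole pups of postnatal day 1 (C57BL/6), labelled with Cy3, was the reference on every array. The values are log2 ratios of heart over pup reference signal after normalization, so that 0 means equal signal. Precision is limited by the number of arrays. Nothing in the labels ties an above piece to the below piece of the same number, although 2 pieces came from each heart.

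The heart channel was dimmer on part of the I/R arrays, and this touches every I/R value. The share of Cy5 spots well above background was 34.6% to 43.3% on sham arrays. Of the 12 I/R arrays, 5 had under 25% (9.90% to 24.2%): wild-type I/R above replicates 1 and 2, wild-type I/R below replicate 1, and Tg+ I/R below replicates 2 and 3. These are called the dim arrays here. Their ratios were also squeezed toward 0: the slope of an array's ratios on the sham mean over all features was 0.385 to 0.781 on dim arrays, 0.765 to 0.997 on the other I/R arrays and 0.956 to 1.06 on sham arrays. Between 10 and 32 of the 49 tested genes were above background on a dim array, against 42 to 49 on a sham array. The main I/R results are therefore given with and without the dim arrays. Without them, 1 I/R array remains in wild type above, 2 in wild type below, 3 in Tg+ above and 1 in Tg+ below. The heart label was checked on markers: the 6 ventricular cardiomyocyte markers averaged 3.26 to 3.93 on sham arrays and 2.69 to 3.45 on I/R arrays. Fn1, the marker given for this gene group, was above background on all 12 sham arrays but on none of the dim arrays. In bulk tissue, fewer cells of a type and less RNA per cell cannot be told apart.

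For 3 genes whose ratios were higher in I/R hearts with and without the dim arrays, the 250 bases upstream of the RefSeq start (GRCm38.p6) show which core promoter motifs they hold. Capitals mark the motifs searched on both strands: the TATA box TATAAA, the GC box GGGCGG, the CCAAT box CCAAT and the AP-1 site TGAGTCA. The promoter table held 53 of the 82 genes.
Adamts1, chr16:85803114-85803363, minus strand: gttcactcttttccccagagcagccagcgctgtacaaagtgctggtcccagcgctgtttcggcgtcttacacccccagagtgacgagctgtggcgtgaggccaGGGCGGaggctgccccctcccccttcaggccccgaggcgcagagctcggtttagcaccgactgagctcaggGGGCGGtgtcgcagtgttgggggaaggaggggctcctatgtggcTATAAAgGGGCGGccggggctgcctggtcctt
Adamts2, chr11:50601835-50602084, plus strand: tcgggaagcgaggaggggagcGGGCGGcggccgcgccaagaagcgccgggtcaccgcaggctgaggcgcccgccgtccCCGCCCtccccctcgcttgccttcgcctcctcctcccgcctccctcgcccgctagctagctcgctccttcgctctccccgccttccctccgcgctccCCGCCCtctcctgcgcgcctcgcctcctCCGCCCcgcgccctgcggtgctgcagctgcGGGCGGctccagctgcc
Col18a1, chr10:77166531-77166780, minus strand: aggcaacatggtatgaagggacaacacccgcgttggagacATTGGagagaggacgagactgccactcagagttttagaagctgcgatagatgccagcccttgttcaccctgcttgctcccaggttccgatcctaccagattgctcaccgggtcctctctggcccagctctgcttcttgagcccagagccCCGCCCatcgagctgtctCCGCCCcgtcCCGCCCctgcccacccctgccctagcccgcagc
The Adamts1 stretch held 1 TATA box and 3 GC boxes. The Adamts2 stretch held 5 GC boxes, and the Col18a1 stretch 3 GC boxes and 1 CCAAT box. None of the 3 held the AP-1 site. Among 32851 promoter windows of this length, 12.4% held the TATA box, 32.7% the GC box, 33.8% the CCAAT box and 4.46% the AP-1 site. A match describes letters and does not show that a factor binds.

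In sham hearts most matrix genes stood below the newborn pup. Of the 49 tested genes, 37 had a mean ratio below 0 over the 12 sham arrays, and 35 of them were below 0 on all 12 arrays. Their median was -0.80, against 0.05 for all features, and 75.5% were below 0, against 45.1% of all features. A ratio under -1 was seen in 46.9% of these genes and in 9.66% of all features. These are levels against another tissue in the other dye, with no dye swap, so dye bias is part of them and no test was made.

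**Figure D1:**
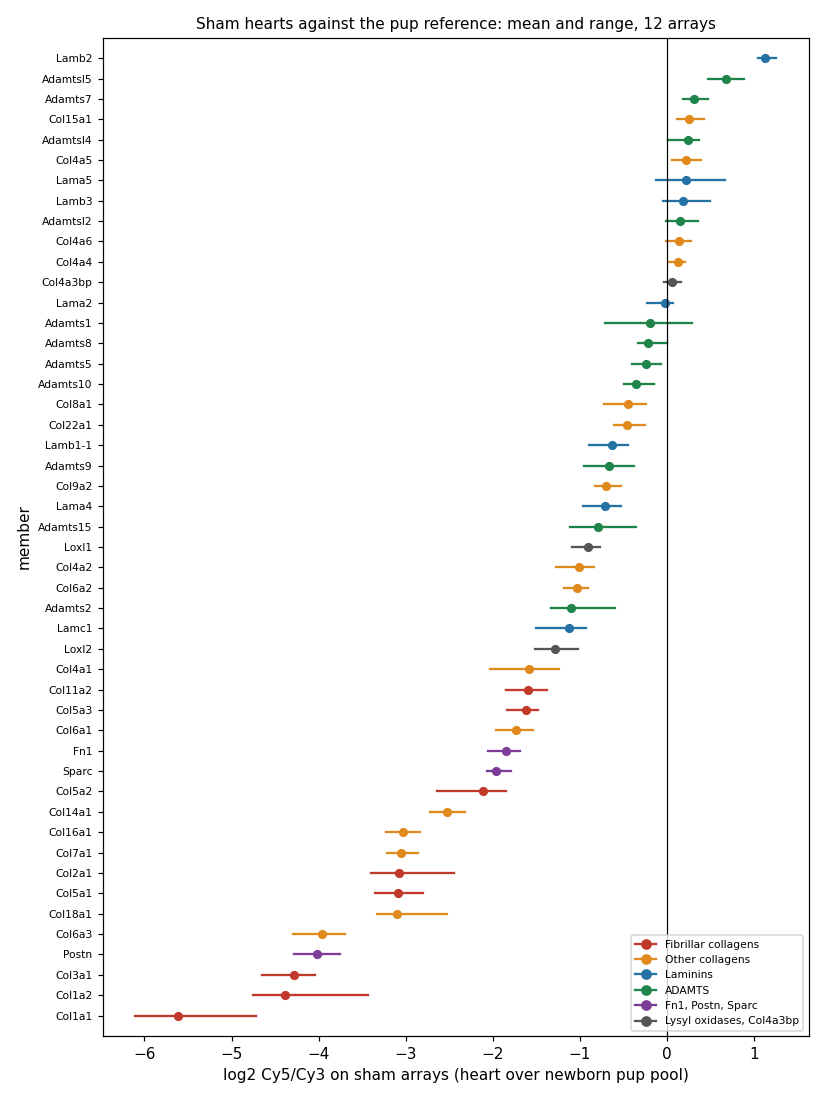
Mean (point) and range (line) of log2 Cy5/Cy3 over the 12 sham arrays for 48 tested genes, ordered by mean and coloured by family. Col1a1 is lowest at -5.62 and Lamb2 highest at 1.13, and 5 of the 10 genes under -3 are fibrillar collagens.

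The fibrillar collagens, which form the main tensile fibres, held the 3 lowest ratios. Col1a1, the alpha 1 chain of collagen I, had a ratio of -5.62 ± 0.36 (SD, n = 12) on sham arrays, 49.1-fold below the pup, and ran from -6.11 to -4.72. This level depends on the probe: a second Col1a1 probe was at -3.05 on sham arrays, and its I/R minus sham difference was 0.64 against 1.16 for the probe used. Its partner chain Col1a2 was at -4.39 ± 0.39 and Col3a1, collagen III, at -4.28 ± 0.19 (SD, n = 12 each). The 8 tested fibrillar genes ranged up to -1.59 for Col11a2, with a median of -3.09. Periostin, a matricellular protein of developing and healing tissue, was at -4.02 ± 0.14, Sparc at -1.96 ± 0.09 and Fn1 at -1.85 ± 0.12 (SD, n = 12 each). Col6a3 (beaded filaments) was at -3.96 ± 0.15. Col18a1, the multiplexin that carries endostatin, was at -3.10 ± 0.22, Col7a1, the anchoring fibril collagen, at -3.06 ± 0.13, and Col16a1 at -3.03 ± 0.12.

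The basement membrane genes stayed nearer to the pup level and were split. Lamb2, the laminin beta 2 chain, had the highest ratio of all tested members at 1.13 ± 0.06 (SD, n = 12), 2.18-fold above the pup, with 1.04 as its lowest array. Lama5 was at 0.22 ± 0.28, with arrays on both sides of 0, and Lama2, the alpha chain of muscle laminin, at -0.03 ± 0.08. Other chains were lower, at -0.63 ± 0.15 for Lamb1-1 (now Lamb1), -0.71 ± 0.12 for Lama4 and -1.12 ± 0.16 for Lamc1. Collagen IV showed the same split within a family: Col4a1 was at -1.59 ± 0.23 and Col4a2 at -1.01 ± 0.12, while Col4a4, Col4a5 and Col4a6 were at 0.12 ± 0.06, 0.22 ± 0.08 and 0.14 ± 0.10. Col15a1, the other multiplexin, was at 0.25 ± 0.11. Col4a5 was above background on 7 of 24 arrays and Col4a6 on 9.

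The ADAMTS genes lay closer to 0 than the collagens. Adamtsl5 (0.68 ± 0.12), Adamts7 (0.31 ± 0.08) and Adamtsl4 (0.23 ± 0.11) were above the pup on all 12 sham arrays. Adamts2, which removes the amino-terminal propeptide of procollagen, was at -1.11 ± 0.19 and the versican-cutting Adamts1 at -0.20 ± 0.31. The lysyl oxidase genes Loxl1 and Loxl2 were at -0.91 ± 0.09 and -1.29 ± 0.13 (SD, n = 12 each). Lox itself was not tested: its heart signal was above background on 4 of 24 arrays, while the pup signal was on all 24. In all, 33 genes were not tested, among them Lama1, Lama3, Lamc3, Col11a1, Col12a1, Loxl3, Loxl4 and Adamts4. For 24 of them the heart signal was above background on no array, and for 12 the pup signal was above it on all 24.

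The comparison of I/R with sham hearts asks how the injury changed these genes. Averaged over the pieces of each heart and over genotypes (6 hearts against 6), 22 of the 49 genes rose and 6 fell (limma, Benjamini-Hochberg adjusted p under 0.05). Over all features tested, 25.5% rose and 25.5% fell. Leaving out the dim arrays removes 1 I/R heart and leaves 5, of which 3 rest on 1 piece and 2 on both. Those 3 keep the above piece in Tg+ replicates 2 and 3 and the below piece in wild-type replicate 2. All 6 sham hearts keep both pieces, so piece and genotype are mixed in the differences without the dim arrays. Without the dim arrays 9 rose and 11 fell, against 16.9% and 19.4% of all features. The median change of the 49 genes was 0.24, and 0.02 without the dim arrays, against -0.00 and -0.01 over all features. Of the 28 genes called, 9 kept their direction and their call under all 10 alternative settings fitted to the heart means. They also did so with each of the 12 hearts left out in turn. Slide as a block was not among the 10, since it was fitted only to the single pieces. Of these 9 genes, Adamts1 and Adamts2 rose, and Adamts7, Col15a1, Lama2, Lama5, Lamb2 and Col4a3bp fell. The other was Adamts8, which passed the filter on dim probes only through 1 group, Tg+ I/R above, where it was highest. The labels do not say that pieces with the same number share a heart, and these means take them to.

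**Figure D2:**
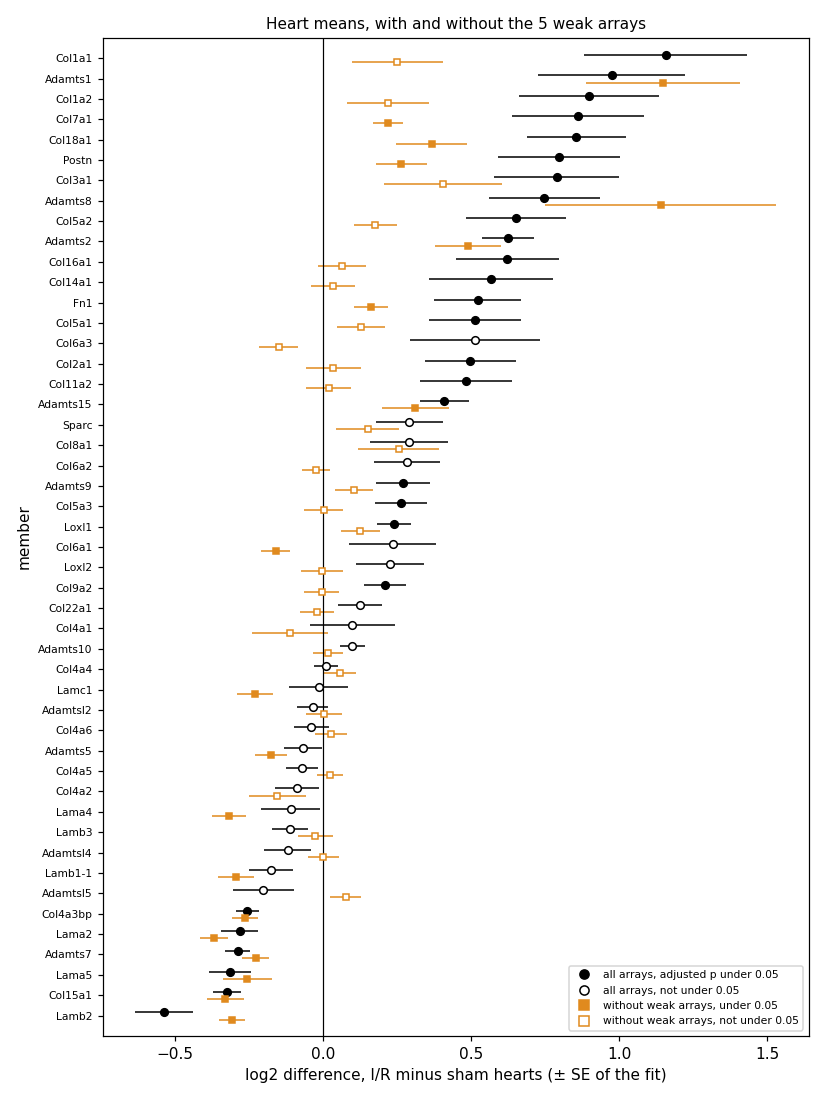
Log2 difference of I/R minus sham heart means (± SE of the fit) for 48 tested genes, with all arrays (circles, 6 hearts against 6) and without the 5 dim arrays (squares, 5 I/R hearts against 6 sham hearts), filled where the adjusted p was under 0.05. Adamts1, Adamts8 and Adamts2 stay to the right with both sets of arrays, while Col1a1 goes from 1.16 to 0.25. Adamts8 passed the filter on dim probes only through the group where it is highest, so its place is no support for a rise.

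Among the proteoglycan-cutting ADAMTS genes, 4 of 5 tested were called higher in the heart means, against 25.5% of all features, 1 of them Adamts8. All 5 had mean sham ratios of -0.80 to -0.20, and 38.7% of all features from -1 to 0 were called higher. Adamts5 did not pass the test (-0.07 ± 0.07 SE, limma adjusted p = 0.403) and was called lower without the dim arrays (-0.18, 0.0237). Adamts1 was -0.61, -0.34, -0.25, -0.15, -0.02 and 0.17 in the sham hearts and 0.04, 0.22, 0.26, 0.63, 1.53 and 1.97 in the I/R hearts. The 2 highest hearts were Tg+ I/R, and 1 I/R heart, at 0.04, lay within the sham range. The mean rise over both genotypes was 0.97 ± 0.25 (SE, limma adjusted p = 0.00804), and 1.15 ± 0.26 without the dim arrays. By piece, Adamts1 was called higher only in Tg+. Its genotype by surgery interaction was 1.54 ± 0.58 above the tie, not called. A second Adamts1 probe gave 0.20. Adamts15 rose by 0.41 ± 0.08 (limma adjusted p = 0.00225), and by 0.31 without the dim arrays, still called. Adamts8 had a fitted difference of 0.75 ± 0.19 (limma adjusted p = 0.00731), and of 1.14 without the dim arrays. It was above background on 2 of 12 sham arrays and passed the filter only through Tg+ I/R above, the group where it is highest, so a difference was built into its selection and its call is no support for one. Adamts9 rose by 0.27 ± 0.09 (0.0303), but its difference without the dim arrays was 0.10 and did not pass the test.

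For Adamts2, the procollagen N-proteinase, the heart means were -1.26 to -0.86 in sham hearts and -0.81 to -0.21 in I/R hearts, with no overlap. The rise was 0.63 ± 0.09 (SE, limma adjusted p = 0.000302), and 0.49 ± 0.11 without the dim arrays. A second Adamts2 probe gave 0.27. On single arrays the range of sham values was -1.34 to -0.60. In wild-type I/R tissue below the tie, the 2 arrays that were not dim stood at -1.17 and -1.11, within it, while the dim array stood at -0.24.

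Transcripts of Lamb2, Lama5, Lama2 and Col15a1 fell. Lamb2 was 1.09 to 1.16 in the 6 sham hearts and 0.34, 0.38, 0.43, 0.67, 0.80 and 0.93 in the I/R hearts, so that the groups did not overlap. Its fall was -0.54 ± 0.10 (SE, limma adjusted p = 0.00133), and -0.31 ± 0.04 without the dim arrays. Lama5 fell by 0.31 on the log2 scale (SE 0.07, limma adjusted p = 0.00392) and Lama2 by 0.28 (SE 0.06, adjusted p = 0.00367). Without the dim arrays these were -0.26 and -0.37, both still called, and a second Lama2 probe gave -0.21 with all arrays. Lama5 heart means overlapped between the groups, from -0.09 to 0.61 in sham and from -0.23 to 0.09 in I/R hearts. By piece, Lama5 was called lower only in wild type. Its genotype by surgery interaction was 0.38 above and 0.30 below the tie, called in neither piece. Col15a1, the multiplexin of muscle and capillary basement membranes, was 0.14 to 0.33 in the sham hearts and -0.16 to 0.01 in the I/R hearts. Its change was -0.32 ± 0.05 (limma adjusted p = 0.000371), and -0.33 without the dim arrays. Lamb3 (-0.11 ± 0.06) and Lama4 (-0.11 ± 0.10) did not pass the test with all arrays. The ubiquitous chains overlapped between the groups: Lamc1 heart means were -1.26, -1.09 and -1.01 in sham (lowest, median and highest) and -1.52, -1.08 and -0.93 in I/R, and those of Lamb1-1 -0.80, -0.64 and -0.51 and -1.07, -0.80 and -0.56. Without the dim arrays Lama4 (-0.32), Lamb1-1 (-0.29) and Lamc1 (-0.23) also passed. Adamts7 fell by 0.29 (SE 0.04, limma adjusted p = 0.000371), and its difference was -0.23 without the dim arrays, still called. A second Adamts7 probe gave -0.27 with all arrays. Of the 1010 features over 1 on sham arrays, to which Lamb2 belongs, 66.2% were called lower with all arrays, at a median of -0.43. Without the dim arrays 50.4% were called lower, at a median of -0.22.

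None of the 5 tested collagen IV genes was called in an I/R comparison with either set of arrays, and the heart mean differences were 0.10 ± 0.14 for Col4a1 and -0.09 ± 0.07 for Col4a2 (SE of the fit). The matching difference of Col4a1 without the dim arrays was -0.11 ± 0.13. With rescaled ratios, a setting described with the fibrillar collagens, Col4a1 (-0.52) and Col4a2 (-0.61) were called lower. In the heart means Col4a1 was -1.91, -1.57 and -1.34 in sham (lowest, median and highest) and -2.01, -1.44 and -1.0 in I/R, and Col4a2 -1.20, -0.97 and -0.94 and -1.27, -1.10 and -0.88, so that the groups overlapped for both.

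All 8 tested fibrillar collagens were called higher in the heart means, where 25.5% of all features were, from 0.26 for Col5a3 to 1.16 for Col1a1, but this did not hold without the dim arrays, where none was called. Col1a1 was -5.84 to -5.26 in the sham hearts and -3.71, -4.95, -5.17, -5.09, -3.61 and -4.23 in the I/R hearts. The I/R hearts with a dim array gave the 4 highest values. The rise was 1.16 ± 0.28 (SE, limma adjusted p = 0.00571) with all arrays and 0.25 ± 0.15 without the dim arrays (0.22). Col1a2 heart means were -4.56, -4.40 and -4.10 in sham (lowest, median and highest) and -4.08, -3.59 and -2.68 in I/R, and those of Col3a1 -4.48, -4.25 and -4.09 and -4.31, -3.58 and -2.54. Col1a2 went from 0.90 to 0.22 and Col3a1 from 0.79 to 0.41 when the dim arrays were left out. Ratios rescaled by each array's slope, an added setting chosen after seeing the data, reversed them to -0.58 (Col1a1), -0.43 (Col1a2) and -0.74 (Col3a1). Other features with a low ratio moved in the same way: the 90 features under -3 on sham arrays had a median change of 0.79 with 94.4% called higher, and the 10 tested matrix genes among them had a median of 0.79 with 9 called higher. Those medians were 0.17 and 0.22 when the dim arrays were left out. The part of the dim signal in these rises was not tested beyond these settings.

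**Figure D3:**
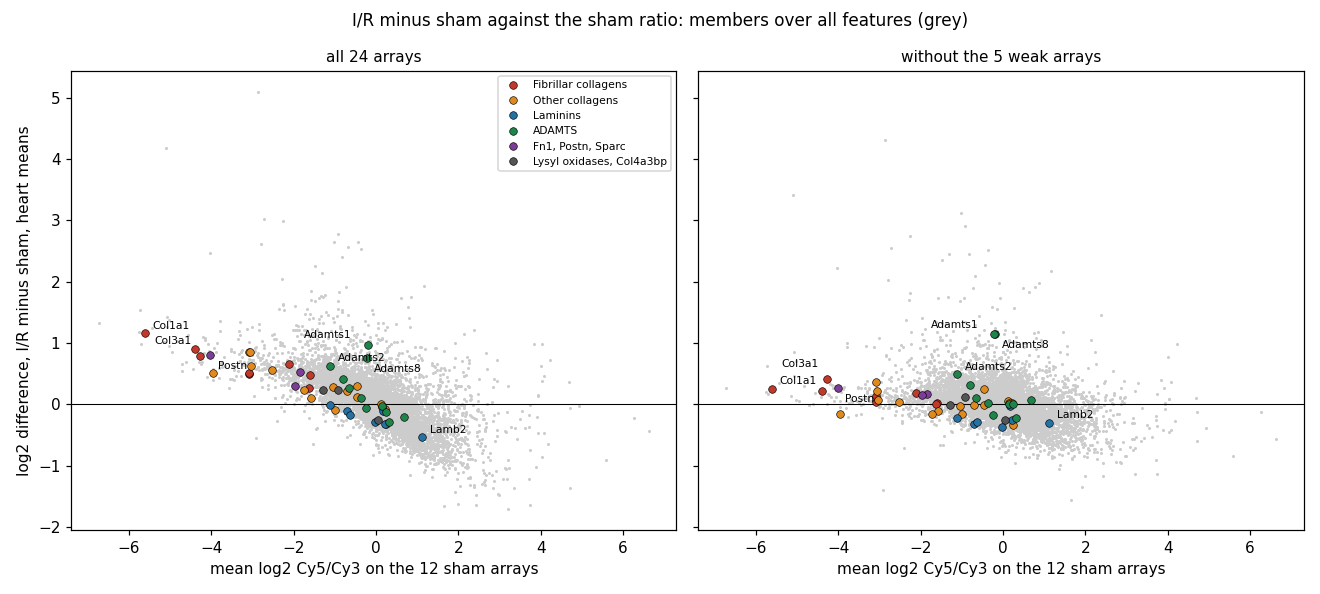
Log2 difference of I/R minus sham heart means against the mean sham ratio for all features (grey) and 48 tested genes (coloured by family), with all 24 arrays (left) and without the 5 dim arrays (right). With all arrays the difference rises toward low sham ratios for all features, and the fibrillar collagens lie in that band. Adamts1 and Adamts8 stand above it in both panels, but Adamts8 passed the filter on dim probes only through the group where it is highest.

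Some low-ratio genes stayed called without the dim arrays, as did other features of like ratio. There, 36.7% of all features under -3 on sham arrays were called higher, and 3 of the 10 tested matrix genes among them. From -2 to -1, where Fn1 lies, 44.4% of all features were called higher. Of the 11 matrix genes there, 2 were called higher and 2 lower. Col18a1 rose by 0.86 ± 0.17 (SE, limma adjusted p = 0.00196) with all arrays and by 0.37 ± 0.12 without the dim ones (0.0316). A second Col18a1 probe gave 0.48 with all arrays. Col7a1 went from 0.86 ± 0.22 to 0.22 ± 0.05, Postn from 0.80 ± 0.20 to 0.26 ± 0.09 and Fn1 from 0.52 ± 0.15 to 0.16 ± 0.06, all still called. The heart means of Postn were -4.13, -4.0 and -3.90 in sham (lowest, median and highest) and -3.91, -3.21 and -2.66 in I/R, and those of Fn1 -1.95, -1.87 and -1.74 and -1.84, -1.34 and -0.82. Sparc, with -2.04, -1.96 and -1.89 in sham and -1.99, -1.79 and -1.18 in I/R, at 0.29 ± 0.11, missed the threshold in both sets (limma adjusted p = 0.05002 and 0.298), and its second probe gave 0.93. The lysyl oxidase Loxl1 rose by 0.24 ± 0.06 with all arrays (0.00593), and by 0.13 without the dim ones, where it did not pass. Rescaled ratios turned Postn to -0.53 and Col18a1 to -0.011, and left Fn1 at 0.03.

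**Figure D4:**
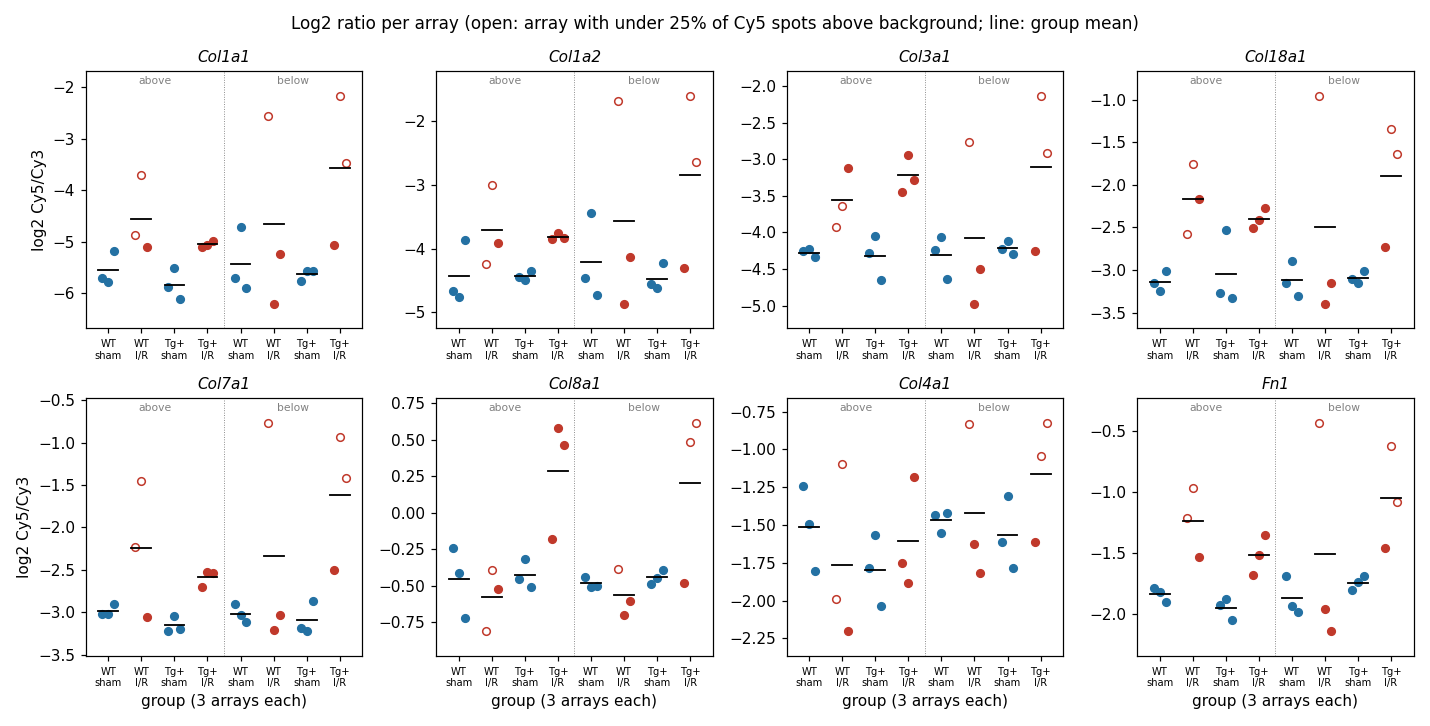
Log2 Cy5/Cy3 of 8 genes on each of the 24 arrays, by group (3 arrays each), with sham in blue, I/R in red, the dim arrays open and group means as lines. For Col1a1, Col1a2, Col18a1 and Col7a1 the dim arrays (open) are among the highest of the I/R arrays, and Col3a1 on the 3 Tg+ I/R arrays above the tie, none of them dim, lies at -3.44 to -2.95.

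The 4 comparisons within a genotype and a piece give the calls in each. A call in some and not in others does not show that they differ, and dim arrays were unevenly spread over them. Above the tie in wild type, 2 of the 49 genes rose and 2 fell, against 5.97% and 7.31% of all features. Adamts2 rose by 0.79 ± 0.22 (SE, limma adjusted p = 0.0254) and Adamts15 by 0.55 ± 0.17 (0.0412). Lama5 fell by 0.50 (SE 0.13, 0.0182) and Adamts7 by 0.38 (SE 0.09, 0.00895). Without the dim arrays, with 1 I/R array left, 4 rose and 4 fell, against 7.37% and 5.53% of all features, and Lama5 (-0.39, 0.172) was not among them. Below the tie in wild type, only Lama5 passed, with a fall of 0.47 (SE 0.13, limma adjusted p = 0.0441), against 2.14% of features higher and 3.45% lower. Lama5 was 0.56, 0.37 and 0.54 on the wild-type sham arrays below and -0.12, 0.18 and 0.01 on the I/R arrays. The groups did not overlap, as was so for 13.5% of all features in this direction. Without the dim array 1 gene rose and 6 fell, against 5.14% and 6.67%, and Lama5 (-0.40, limma adjusted p = 0.0786) was not called.

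In Tg+ tissue above the tie, where no array was dim, 4 of the 49 genes rose and 1 fell, against 6.92% and 8.42% of all features. Adamts8, of the proteoglycan-cutting group, was -0.29, -0.00 and -0.29 on the sham arrays and 0.85, 1.30 and 3.35 on the I/R arrays. All 3 I/R arrays lay above all sham arrays, as was so for 25% of all features, with a spread of 1.33 (SD, n = 3). The fitted difference was 2.03 ± 0.39 (SE, limma adjusted p = 0.00279). Only 1 of the 3 sham arrays was above background for this gene, and it passed the filter through this I/R group alone, so the size of the difference is not a measured fold. Adamts1 was -0.72, -0.04 and -0.46 on sham and 0.28, 1.67 and 1.78 on I/R arrays, which gave 1.65 ± 0.41 (0.0117). Col8a1, a network collagen of vessel walls, rose by 0.72 ± 0.22 (0.0352) and Adamts2 by 0.72 ± 0.22 (0.0355). Col4a3bp fell by 0.42 (SE 0.07, 0.00118).

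In the same Tg+ tissue above the tie, the fit that left out the dim arrays of the other groups called 19 of the 49 genes higher and 4 lower, against 22% and 19.6% of all features. The differences in this tissue were unchanged, since its 6 arrays stayed, and the standard errors were smaller. Postn rose by 0.80 ± 0.11, Col3a1 by 1.10 ± 0.17, Fn1 by 0.44 ± 0.09, Col1a1 by 0.79 ± 0.27 and Loxl1 by 0.45 ± 0.10. Col3a1 was -4.27, -4.05 and -4.65 on the sham and -3.44, -2.95 and -3.28 on the I/R arrays. Features under -3 on the sham arrays had a median of 0.50 there, and 0.59 for the 10 matrix genes. With rescaled ratios Postn stood at -0.12, Col1a1 at -0.60 and Col3a1 at 0.19, none called.

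Below the tie in Tg+, 7 genes rose and 4 fell, against 15.3% and 17.1% of all features. Replicates 2 and 3 of this group were dim. Col1a1 was -5.76, -5.56 and -5.58 on the sham arrays and -5.07, -2.16 and -3.47 on the I/R arrays, and the array that was not dim was the lowest. Its rise of 2.07 ± 0.70 (SE, limma adjusted p = 0.0305) was 0.56 without the dim arrays and not called. Adamts1 rose by 1.5 ± 0.41 (0.0105), Col7a1 by 1.47 ± 0.48 (0.0257), Col18a1 by 1.19 ± 0.44 (0.0470), Adamts2 by 0.69 ± 0.22 (0.0250), Col8a1 by 0.65 ± 0.22 (0.0328) and Adamts9 by 0.54 ± 0.16 (0.0187). Of these 7 genes, only Col7a1 was still called without the dim arrays, where 1 gene rose and 1 fell, against 6.8% and 6.73% of all features. Lamb2 was 1.16, 1.13 and 1.25 on the sham arrays and 0.57, 0.04 and 0.05 on the I/R arrays, of which only the first was not dim. It fell by 0.96 (SE 0.17, limma adjusted p = 0.000704), and by 0.61 (SE 0.11, 0.00147) without the dim arrays, and kept its call with each array left out. Col15a1 was not well above background on any I/R array of this group, so its fold is a lower bound: the sham mean was at least 1.33-fold higher than the limit (limma adjusted p = 0.00852). Adamts7 fell by 0.30 (SE 0.09, 0.0174) and Col4a3bp by 0.28 (SE 0.07, 0.00707).

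Several of these calls hang on single arrays. In wild type above, Adamts2 kept its call only in the fit without I/R replicate 1 and Adamts15 in none of the 6 fits that left out 1 array. Lama5 kept its call in 3 of those fits above the tie and in 1 below it, the fit without I/R replicate 2. In Tg+ above, Adamts2 was kept only without sham replicate 2, Col8a1 only without I/R replicate 1, and Adamts1 in 3 of 6 fits. Adamts7 in wild type above lost its call without I/R replicate 2. In Tg+ below, Adamts1 lost it without I/R replicate 3, Col15a1 without I/R replicate 2, Adamts7 and Adamts9 in 3 fits each and Col7a1 in 4. Also there, Col1a1, Col18a1, Col8a1 and Adamts2 were kept only without I/R replicate 1, the array that was not dim. With the slide as a block, no member was called in wild type or in Tg+ below, and Adamts8 and Col4a3bp were called in Tg+ above. Each of these 4 comparisons had a single slide that held both groups, with 1 array of each. On that slide Adamts8 differed by 1.59 in Tg+ above, Adamts1 by 2.13 and Adamts2 by 0.98, and Lamb2 differed by -1.21 in Tg+ below, on a dim array. Adamts1 differed by -0.63 on the slide of the wild-type above arrays.

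Other cell types moved with these results. The 4 measured atrial cardiomyocyte markers averaged -1.93 to 1.88 on sham arrays and -1.67 to 4.14 on I/R arrays. On the above arrays the list stood at 2.44, -0.59 and 4.14 in wild-type I/R and at 2.68, 2.67 and 2.63 in Tg+ I/R. Adamts8 was highest on those pieces, with 1.02 on wild-type I/R above replicate 3, where the atrial list was at 4.14, and the highest sham value of Adamts8, -0.00, was on Tg+ sham above replicate 2, where the list was at 1.88. On that array Adamts2 (-0.60), Adamts15 (-0.36) and Col18a1 (-2.53) also had their highest sham values. Wild-type I/R above replicate 1, a dim array, had the atrial list at 2.44. Adamts8 was there 0.25 higher than on the wild-type sham above array of the same slide. Over the Tg+ I/R above arrays the list was nearly equal, while Adamts8 varied widely. Both measured neutrophil markers, S100a8 and S100a9, were called higher in all 4 I/R comparisons, with a median heart mean difference of 3.12. Macrophage markers had 4 of 6 called higher, epicardial and mesothelial markers 3 of 3, and fibroblast markers 5 of 9. Of the ventricular markers, 3 of 6 were called lower, and of the endothelial markers 3 of 7. These counts are with all arrays, where 25.5% of all features were called higher and 25.5% lower in the heart means. Called higher were 94.4% of features under -3, 80.7% from -2 to -1 and 38.7% from -1 to 0. Of those over 1, 66.2% were called lower. The epicardial list averaged -1.48 to -1.08 on sham arrays, the macrophage list -0.71 to -0.42 and the neutrophil list -3.93 to -3.43. Averages of the smooth muscle, cartilage and adipocyte lists overlapped between sham and I/R arrays. The part of these cell types in the matrix results was not tested.

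Between the genotypes, Tg+ against wild type at a given surgery and piece, no member passed the test. In sham hearts 0.035% (above) and 0.0262% (below) of all features passed, and in I/R hearts 0.656% and 2.94%. At an unadjusted p under 0.05, 1 member differed in sham above, 1 in sham below, 4 in I/R above and 5 in I/R below. Lama5 was the lowest in both sham comparisons, at -0.43 ± 0.13 above and -0.48 ± 0.13 below (limma adjusted p = 1.00 in both). It was 0.67, 0.39 and 0.12 on wild-type sham arrays above against -0.13, 0.12 and -0.09 on Tg+ sham arrays, and 0.56, 0.37 and 0.54 below against -0.05, 0.05 and 0.04. The groups below did not overlap, as was so for 7.41% of all features in this direction. In I/R tissue above, Col8a1 (0.86 ± 0.22, limma adjusted p = 0.0784) and Adamts8 (1.46 ± 0.39, 0.0937) had the smallest p (Adamts8 with 1 of 3 wild-type arrays above background and chosen by the filter through the Tg+ arrays), and below Col8a1 (0.77 ± 0.22, 0.0663) and Adamts10 (0.21 ± 0.08, 0.134). Col8a1 was -0.81, -0.39 and -0.52 on wild-type I/R arrays above and -0.18, 0.58 and 0.46 on Tg+ ones. Without the dim arrays, 5 members were called higher in Tg+ I/R below, Col14a1, Col16a1, Col6a3, Col7a1 and Fn1, on 1 Tg+ array against 2 wild-type arrays, against 4.67% of all features.

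Neither the genotype by surgery interaction nor the difference of the pieces called a member. The interaction above had its smallest p in Col4a3bp (-0.28 ± 0.10, limma adjusted p = 0.410) and Adamts1 (1.54 ± 0.58, 0.446), and the one below in Col8a1 (0.73 ± 0.31, 0.437) and Lamb2 (-0.44 ± 0.24, 0.509). In each interaction 0.0175% of all features passed. No member was thus shown to change differently in Tg+ and wild type. Below minus above, 0% of all features passed in sham and 0.175% in I/R tissue. In I/R tissue Adamtsl2 (-0.28 ± 0.06, 0.0720) and Adamts8 (-1.15 ± 0.28, 0.0933) had the smallest p. Adamts8 passed the filter on dim probes only through Tg+ I/R above, so its differences between the pieces are no support for one. When the dim arrays were left out, 5 members were called lower below the tie than above it, Col3a1 (-1.32), Adamts8 (-1.55), Adamts2 (-0.83), Col18a1 (-0.72) and Postn (-0.54), against 2.88% of all features. In sham hearts Col4a6 (-0.08 ± 0.07) and Adamtsl2 (-0.07 ± 0.06) had the smallest p (limma adjusted p = 1.00 for both), and 0 members passed at an unadjusted p under 0.05.

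Other genes of the matrix pathway moved in the heart means too. The shares to read these counts against are those of all features, 25.5% higher and 25.5% lower. Among 15 tested genes of collagen folding and processing, 6 rose and 4 fell. Fkbp10, a collagen prolyl isomerase, rose by 0.60 (limma adjusted p = 5.44e-05), Ppib by 0.73 (0.000152) and P4hb, a subunit of prolyl 4-hydroxylase, by 0.29 (0.0016), and all were called without the dim arrays. Of 12 genes of TGF-beta signalling, 7 rose and 2 fell, with Tgfb2 up by 0.67 (0.00179) and Ltbp1 down by 0.22 (0.00178). Of 18 other matrix proteins, 11 rose and none fell. Among these were Ecm1 (0.90, 0.000549) and Fbln5, which helps to assemble elastic fibres (0.63, 0.000863). Of 17 matrix receptors, 8 rose and 4 fell. Integrin alpha 9 (Itga9) fell by 0.71 (2.25e-05), and dystroglycan (Dag1), the laminin receptor of muscle, by 0.62 (4.33e-05), while the hyaluronan receptor Cd44 rose by 0.91 (7.13e-05). All 3 were called without the dim arrays. With the dim arrays left out, the counts higher and lower were 5 and 0 for folding and processing, 3 and 2 for TGF-beta signalling, 7 and 1 for other matrix proteins, and 8 and 3 for the receptors, against 16.9% and 19.4% of all features.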

How the data were processed

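Each array was deposited as scanner output read with Feature Extraction 9.5.3.1, per the file headers. The deposited mean and background signals are spot intensity values on a linear scale. The deposited Agilent log10 ratio and the deposited series table, which matched it as log2 values, served as alternatives. Source fields label heart RNA Cy5, while a protocol text names Cy3 for it; the Cy5 fields were followed, and ventricular markers were high in that channel. Signals were corrected with normexp (offset 50), normalized by loess within arrays with limma 3.58.1 in R 4.3.3, and averaged over spots of a probe. A probe was kept where its Cy5 signal was well above background on every array of 1 or more groups. A fit of 8 group means (16 residual degrees of freedom) and a fit of 12 heart means were moderated with eBayes, with Benjamini-Hochberg adjustment within each comparison and a threshold of 0.05. The procedure was tested on simulated data. The array signals come from 7 slides, and slide was tried as a block in the fit of 8 group means only. Genes were named by rule: Fn1, Postn, Sparc, Col1a1, Col1a2, Col3a1, Col4a1, Col4a2, Lamb1, Lamc1 and Lox always, the 4 largest called increases and decreases of a comparison, the 2 smallest p where none passed, and the 6 highest and 6 lowest sham ratios. Other genes were named after their values were seen. The members and lists were chosen with earlier results of these data known. The values of 1 tested gene are not reported here; it is counted in the totals and not drawn.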

Additional observations from a re-analysis of the deposited data

How the results depend on the processing

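Counts of called matrix genes (of 49) moved with the settings, and the cause was not tested. Without background correction, wild type below had 3 and Tg+ minus wild type in I/R below 1. With the Agilent log ratio and with the series value table alike, Tg+ above had 3, Tg+ minus wild type in I/R below 3 and below minus above in I/R 1. With Cy5 alone these were 3 for Tg+ above and 4 for Tg+ minus wild type in I/R below, and the heart means had 17. Without the filter on dim probes, wild type below had 0, Tg+ above 3 and Tg+ below 7, and 63 of 82 genes lay below the pup. With slide as a block, wild type above, wild type below and Tg+ below had 0 and Tg+ above 2. With only the arrays compared, wild type below had 0, Tg+ above 20 and Tg+ below 17. With array weights, wild type above had 19, wild type below 9, Tg+ above 23 and Tg+ below 34; Tg+ minus wild type had 3 (sham above), 1 (sham below), 4 (I/R above) and 38 (I/R below), below minus above in I/R 2, and the interactions 5 above and 32 below. Without the 5 dim arrays, wild type above had 8, wild type below 7, Tg+ above 23, Tg+ below 2, Tg+ minus wild type in I/R below 5 and below minus above in I/R 5. With rescaled ratios, added after seeing the data, these were 3 for Tg+ above, 20 for Tg+ below, 5 for Tg+ minus wild type in I/R below and 2 for below minus above in I/R. The replicate block by heart gave 1 for below minus above in I/R. Deviations of same-numbered pieces from their group means correlated over 0.1 in 8 of 12 pairs (-0.73 to 0.54). The lowest pair, wild-type I/R replicate 2, joined a dim array and an array that was not dim. Array dimness enters these deviations, so they cannot decide whether a number marks 1 heart, as the heart means assume. Leaving out 1 array gave 1 to 3 for wild type above, 0 to 4 for wild type below (4 without I/R replicate 1), 2 to 5 for Tg+ above, and 3 to 24 for Tg+ below (24 without I/R replicate 1, 3 without I/R replicate 3). It gave 0 to 0 for Tg+ minus wild type in both sham pieces and for below minus above in sham, 0 to 3 in I/R above, 0 to 33 in I/R below (33 without wild-type I/R replicate 1), 0 to 1 for below minus above in I/R, 0 to 0 for the interaction above and 0 to 14 for that below (14 without wild-type I/R replicate 1). Leaving out 1 heart gave 23 to 35 in the heart means. Heart mean differences that changed sign were Col14a1 (-0.0895), Col5a3 (-0.16), Col9a2 (-0.13) and Loxl1 (-0.0895) with the Agilent ratio and the series table. With Cy5 alone they were Adamts9 (-0.0017), Col14a1 (-0.11), Col5a1 (-0.015), Col5a2 (-0.036), Col5a3 (-0.12), Col9a2 (-0.027) and Loxl1 (-0.020). Without the dim arrays they were Col9a2 (-0.0049) and, in Tg+ below, Col8a1 (-0.039). With rescaled ratios they were Col14a1 (-0.15), Col16a1 (-0.31), Col18a1 (-0.011), Col1a1 (-0.58), Col1a2 (-0.43), Col2a1 (-0.57), Col3a1 (-0.74), Col5a1 (-0.56), Col5a3 (-0.30), Loxl1 (-0.065) and Postn (-0.53), and in Tg+ below Col1a1 (-0.65) and Col18a1 (-0.32). Of 1015 values of called genes under alternatives, 750 kept direction and call, 235 kept direction only and 30 changed sign.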
